A study of Mus musculus with 8 samples.

Results

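The RNA exosome subunits are *Exosc1* to *Exosc10*, 10 of the 35560 genes with a usable probe on the arrays, and were chosen by name as every probe that the array design assigns to them (12 probes). They were examined to see whether *Exosc8*, whose difference between genotypes in these same cells had raised the question, was higher in *Sox17* KO endocardium cells alone or together with its complex. Expression was measured on 8 1-colour Agilent arrays, 1 for each endocardium cell of the mouse heart tube, on RNA made by transcription of that cell's amplified cDNA. The 4 WT cells (*Mesp1*+/+, *Sox17* flox/flox) carried both floxed alleles but no Cre, and the 4 KO cells (*Mesp1*Cre/+, *Sox17* flox/flox) came from embryos in which Cre expressed from *Mesp1* deletes *Sox17* in all mesoderm derived from *Mesp1*-expressing cells, so in the endocardium and the other cardiac lineages alike. All cells were taken at E8.5 with 9 somites, were picked by capillary, and had been assigned to a cell type by PCR of marker genes. No label names the embryo of a cell, so that each genotype counted as 1 sample: values are given per cell with the SD between cells, and no test was made.

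The RNA exosome is a barrel-shaped complex that degrades and trims RNA from its 3′ end in the nucleus and the cytoplasm, processing ribosomal and small nuclear RNA precursors and removing faulty transcripts. A ring is built of the RNase PH-like proteins EXOSC4 to EXOSC9 in the pairs EXOSC9 and EXOSC4, EXOSC8 and EXOSC6, and EXOSC7 and EXOSC5, none of which cleaves RNA in mammals. A cap of the RNA-binding proteins EXOSC1, EXOSC2 and EXOSC3 lies on the ring, and the nuclease activity comes from associated enzymes, namely EXOSC10 in the nucleus and DIS3 or DIS3L.

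Every reading comes from a 60-base probe. The sequence of the *Exosc8* probe is shown as the array files give it because the question turns on it, and those of 3 probes of *Exosc1* and *Exosc10* because these genes were read by a pair of probes each. The *Exosc8* probe is the only one for its gene. It begins at base 638 of its target transcript, and the files give it no genome position. For *Exosc1* and *Exosc10*, which each have a pair of probes, those shown are the dimmer *Exosc1* probe, which begins at base 352 (no genome position), and both *Exosc10* probes, which begin at bases 2364 and 2059 and lie on the plus strand of mm9 at chr4:147954469-147954528 and chr4:147949950-147950009. Which exon each falls in is not given in the sources used here.
Exosc8, A_52_P496260: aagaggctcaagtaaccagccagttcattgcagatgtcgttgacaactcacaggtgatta
Exosc1, A_52_P69789: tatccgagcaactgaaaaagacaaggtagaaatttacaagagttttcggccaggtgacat
Exosc10, A_51_P391825: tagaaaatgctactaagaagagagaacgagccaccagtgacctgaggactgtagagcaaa
Exosc10, A_55_P2114963: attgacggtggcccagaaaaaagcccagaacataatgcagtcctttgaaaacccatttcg

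The probes of *Exosc2* and *Exosc9* are shown in part because they hold repeated sequence, with the 20 bases most often found elsewhere in capitals.
Exosc2, A_55_P2034740: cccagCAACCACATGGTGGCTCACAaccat
Exosc9, A_55_P2043187: atctcTGTGTGTGTGTGTGTGTATAcatac
The capitals of *Exosc2* occur in the RefSeq promoter windows (GRCm38.p6) of 53 other genes, and its probe shares some 20-base run with the windows of 87 other genes. Only 10 of 55295 probes (0.0181%), this one included, share with as many of the 27025 genes that have such a window. The *Exosc9* probe shares a run with 6 genes and with 11 other probes on the array, and its capitals, found in 3 genes, are a TG repeat. The other 10 exosome probes share none, and 2.94% of all probes share a run with at least 1 other gene. The *Exosc2* probe shares a run with 1 other probe on the array. The windows run from 250 bases before a start to 50 after it, so that a shared run need not be in RNA. Readings of the *Exosc2* and *Exosc9* probes may include RNA from other loci, and whether they do was not tested.

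Across the arrays 11370 to 18175 probes were well above background in WT cells by the call of the scanner software and 12781 to 16853 in KO cells. Values below are log2 intensities, scaled so that the median of the 7570 probes detected on every array was the same for each of them. Intensities under 50 were set to 50, a floor of 5.64 on the log2 scale where values have no order. WT cell 1 had the most variable replicate spots (CV 10.9%, against 4.13% to 5.96%) and was marked for evaluation by the scanner software. Both *Sox17* probes were at the floor and undetected in all 8 cells, so that the genotype labels could not be checked on the arrays. Of 10 endothelial markers, 7 to 10 were well above background in WT cells and 6 to 9 in KO cells. Only *Cdh5* and *Kdr* were above the floor in all 8. The other endothelial markers were above it in 2 (*Npr3*) to 7 cells, *Emcn* in 4. Differences (KO minus WT) of the 10 ran from -2.16 for *Tek* to 4.07 for *Emcn*. Of 9 cardiomyocyte markers, 4 to 7 were well above background in WT cells and 2 to 6 in KO cells, with summed scaled intensities of 364 to 46249 and 782 to 48725. The highest cardiomyocyte sums were in WT cell 2, KO cell 1 and KO cell 4. *Actc1*, a cardiac actin gene, was above the floor in all 8 cells, from 6.38 to 12.80 in WT and from 9.17 to 15.32 in KO cells, 6 other markers were above it in 1 to 6 cells, and *Tnni3* and *Myh6* were at the floor in all. The part of cardiomyocyte RNA in the differences below was not tested. The arrays of each genotype lay together on 1 side of the same slide, and slide position cannot be told apart from genotype.

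*Exosc8*, which pairs with EXOSC6 in the ring, was higher in every KO cell than in any WT cell. Its log2 values, here and below in the order of cells 1 to 4 of a genotype, were 5.64, 7.13, 5.64 and 5.64 in WT and 13.29, 13.66, 8.82 and 13.36 in KO. The WT cells sat at or near the floor, and 3 KO cells lay close together with KO cell 3 well below them. The scanner software called the probe well above background in WT cells 2 and 4 and in all 4 KO cells. Mean values were 6.02 and 12.28, a difference of 6.27 (SD between cells 1.72) or 77.1-fold, which depends on the floor since 3 WT cells were at it. Before scaling, the intensities were 1.56, 218, 1.70 and 14.04 in WT cells and 5262, 7021, 734 and 9677 in KO cells. The scanner software put the error of the *Exosc8* intensity at 10.04% in WT cell 2, at 16.6% in WT cell 4 and at about the size of the reading itself in WT cells 1 and 3. Of the 19142 genes detected (well above background in any cell), 8 had a larger difference in this direction. Because *Exosc8* was put forward for this difference, its values are a description only. Without KO cell 3 the difference was 7.42.

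**Figure D1:**
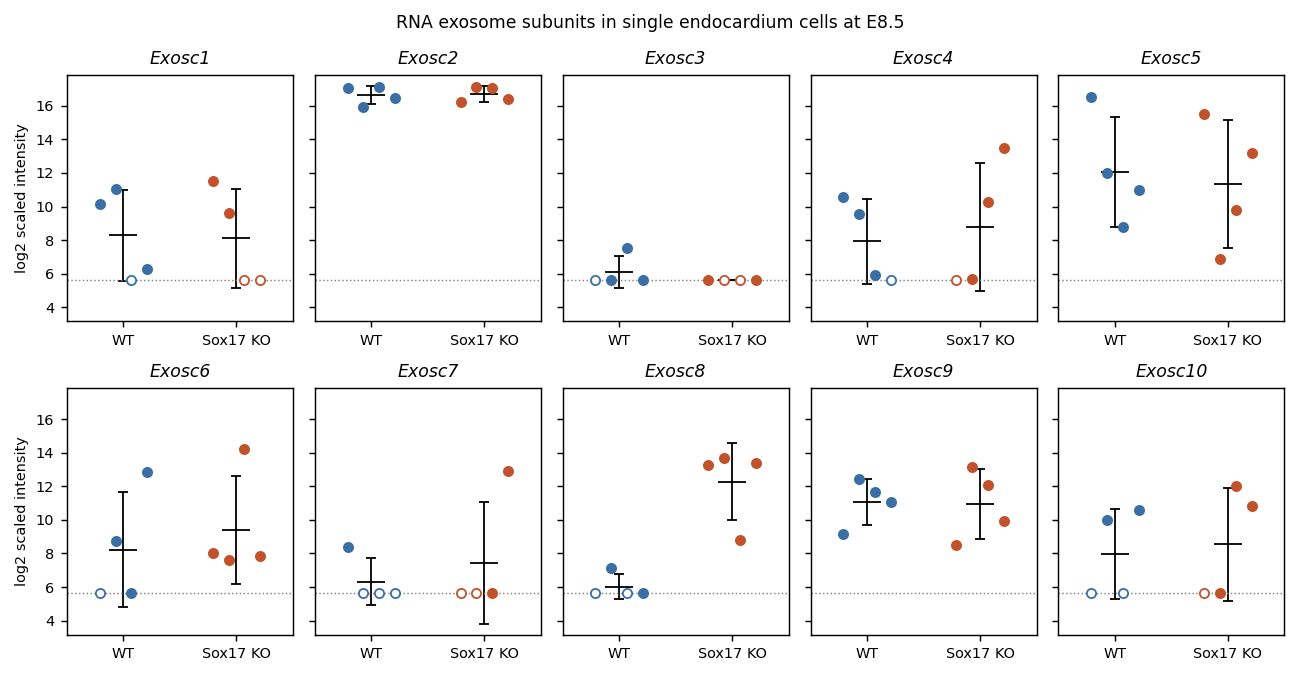
Log2 scaled intensity (y axis) of each exosome subunit, by its brighter probe where there are 2, in 4 WT and 4 *Sox17* KO cells. Each point is 1 cell, filled where the probe was well above background, horizontal bars with whiskers are the mean and SD of the cells of a genotype, and the dotted line is the floor of 5.64. *Exosc8* is the only panel in which the points of the genotypes do not overlap, with WT cells up to 7.13 and KO cells from 8.82.

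No other subunit separated the genotypes. By the brighter probe where there are 2, the 9 others had a median difference (KO minus WT) of 0.07 on the log2 scale. Differences ran from -0.73 to 1.18, with 5 higher and 4 lower in KO cells. At these probes each difference was smaller than the SD between cells of that gene (median SD 2.83). The dimmer *Exosc10* probe differed by -1.81, more than its SD of 1.51. None of the 9 was at least 5-fold higher or at least 5-fold lower, where 3.41% and 3.43% of the 19142 detected genes were. None had all cells of one genotype above all cells of the other, where 1.46% of detected genes did, 1.2% with KO cells above and 0.261% with WT cells above. With *Exosc8* the subunits give 1 of 10 in both counts, a gene that the choice of the question had fixed. For as few as 9 genes, finding none is near these shares. The counts therefore do not set the other subunits apart from detected genes as a whole. *Exosc3* and *Exosc7* were also at the floor in most cells. Over all detected genes the median difference was 0, with a median SD of 0.81, and the 10th and 90th percentiles were -1.30 and 1.37. Without the *Exosc2* probe the median of the remaining 8 was 0.21.

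**Figure D2:**
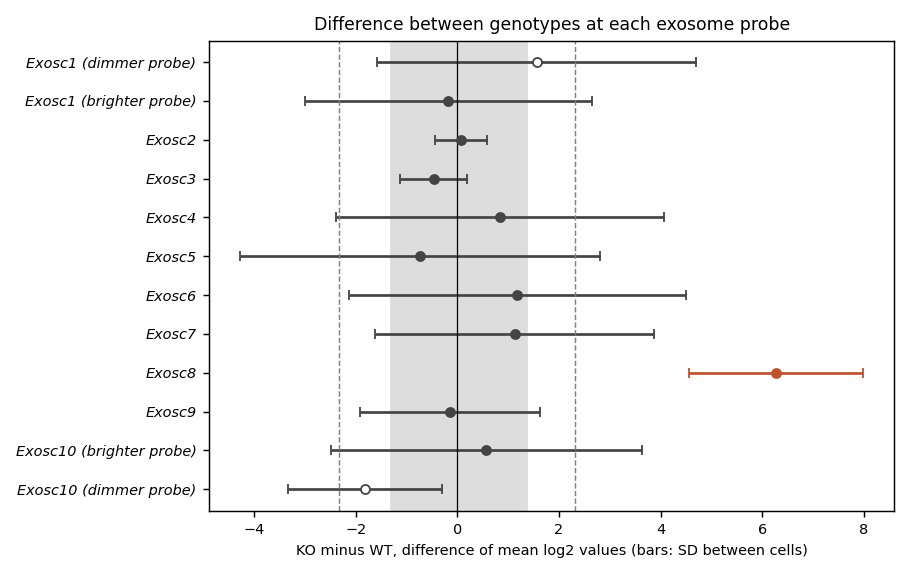
KO minus WT difference (x axis, means of log2 values) at each of the 12 exosome probes (y axis), with bars for the pooled SD between cells. Dashed lines mark 5-fold (2.32 on the log2 scale), the grey band runs from -1.30 to 1.37 (10th to 90th percentile of detected genes), and open points are the dimmer probes of *Exosc1* and *Exosc10*. *Exosc8* at 6.27 is the only point beyond 5-fold.

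The other ring subunits varied widely from cell to cell. *Exosc6*, the ring partner of EXOSC8 (chr8:113581332-113581391, plus strand, mm9), was at 5.64, 8.75, 5.64 and 12.87 in WT cells and at 8.0, 7.58, 14.22 and 7.84 in KO cells. It was well above background in 3 WT and 4 KO cells, and differed by 1.18 (SD 3.32) with overlapping genotypes. KO cell 3, the lowest KO cell for *Exosc8*, was the highest of all cells for *Exosc6*, and without KO cell 3 the *Exosc6* difference was -0.42. Leaving out WT cell 4 instead gave 2.73, past 5-fold.

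*Exosc4*, a ring subunit that pairs with EXOSC9 (chr15:76159845-76159904, plus strand, mm9), was at 10.58, 9.57, 5.93 and 5.64 in WT cells and 5.64, 5.67, 10.28 and 13.47 in KO cells, a difference of 0.83 (SD 3.23), and of -0.73 without KO cell 4. *Exosc9* itself (chr3:36464428-36464487, plus strand, mm9) was well above background in all 8 cells, at 9.16, 12.41, 11.63 and 11.08 in WT cells and 8.51, 13.16, 12.09 and 9.94 in KO cells. Its difference was -0.14 (SD 1.78), and cells 1 of both genotypes were the lowest. The members of this pair thus did not share an order of cells, with a Pearson's r of -0.19 between them over the 8 cells. All *Exosc9* readings come from the probe with the TG repeat shown above.

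*Exosc5* and *Exosc7* encode the last pair of the ring. *Exosc5* (chr7:26452979-26453038, plus strand, mm9), detected in all 8 cells, ranged from 8.77 to 16.52 in WT cells (16.52, 11.97, 8.77 and 11.01) and from 6.86 to 15.52 in KO cells (15.52, 6.86, 9.77 and 13.21). Its difference of -0.73 (SD 3.54) turned to 0.77 without KO cell 2. *Exosc7* (chr9:123045135-123045194, plus strand, mm9) was above the floor in 1 cell of each genotype, WT cell 1 at 8.39 and KO cell 4 at 12.90, and well above background in 1 WT and 2 KO cells. The *Exosc7* difference of 1.13 (SD 2.74) rested on KO cell 4 and was -0.69 without it.

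The cap subunits showed no shared direction either. *Exosc1* had a pair of probes that read much the same cells. At the brighter (chr19:41998088-41998147, minus strand, mm9) the values were 10.15, 11.02, 5.64 and 6.30 in WT cells and 11.52, 9.60, 5.64 and 5.64 in KO cells, a difference of -0.18 (SD 2.83). At the dimmer, shown above, they were 5.64, 11.18, 5.64 and 5.64 in WT cells and 12.37, 10.71, 5.64 and 5.64 in KO cells, a difference of 1.56 (SD 3.14). The *Exosc1* probes gave the same detection call in 7 of 8 cells (r = 0.82 over 8 cells) and differed in WT cell 1, where the brighter was at 10.15 and the dimmer was not well above background. KO cells 3 and 4 were at the floor at both.

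*Exosc2* (chr2:31536706-31536765, plus strand, mm9) had the smallest spread of the members, at 17.06, 15.94, 17.11 and 16.44 in WT cells and 16.23, 17.13, 17.08 and 16.40 in KO cells, with a difference of 0.07 (SD 0.51). These even readings come from the probe with the repeated sequence shown above. *Exosc3* (chr4:45329659-45329718, minus strand, mm9) was above the floor only in WT cell 3, at 7.51, although it was well above background in 3 WT and 2 KO cells. Its difference was -0.47 (SD 0.66), and 0 without WT cell 3.

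*Exosc10*, the nuclear 3′ to 5′ exonuclease that joins the ring and cap, was read differently by its probes. The brighter, which begins at base 2364, gave 5.64, 10.01, 5.64 and 10.58 in WT cells and 5.64, 5.64, 12.02 and 10.85 in KO cells, a difference of 0.57 (SD 3.06). The dimmer, which begins at base 2059, gave 5.64, 9.11, 5.64 and 9.56 in WT cells and 5.64, 5.64, 5.64 and 5.78 in KO cells, a difference of -1.81 (SD 1.51). Both put WT cells 2 and 4 above the other WT cells, but in KO cell 3 the brighter was at 12.02 and the dimmer at the floor, and over 8 cells r was 0.46 with the same detection call in 5. The direction for *Exosc10* thus depended on the probe.

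**Figure D3:**
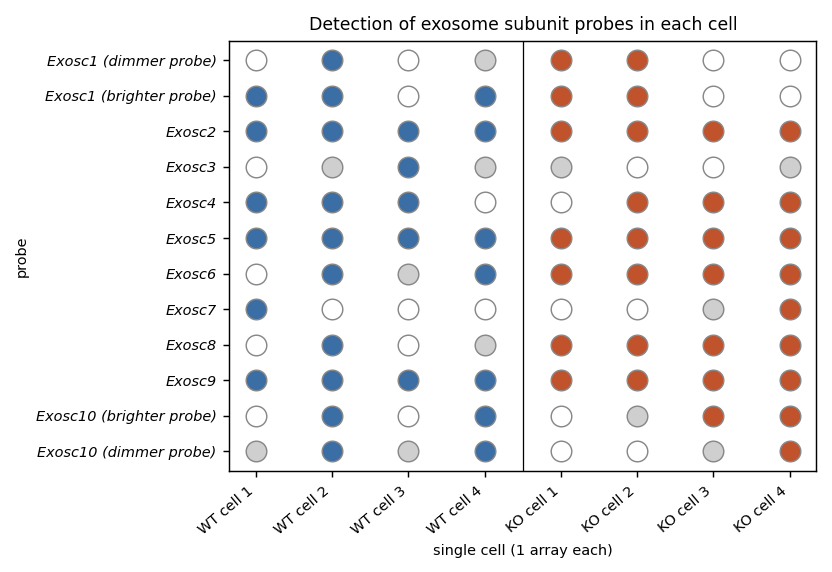
Detection of each exosome probe (y axis) in each cell (x axis, 1 array each). Coloured points were well above background and above the floor, grey points were well above background but at the floor, and white points were not well above background. *Exosc2*, *Exosc5* and *Exosc9* are coloured in all 8 cells, and *Exosc8* is coloured in WT cell 2 and all KO cells.

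All 10 subunits were well above background in at least 1 cell, and 3 (*Exosc2*, *Exosc5* and *Exosc9*) in all 8. Counting either probe, 7, 9, 7 and 8 subunits were detected in the WT cells and 7, 8, 8 and 9 in the KO cells. The number of subunits detected in a cell thus overlapped between genotypes, and no cell had all 10. In cDNA of single cells a low level and molecules lost in amplification cannot be told apart.

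Over the 8 cells *Exosc8* followed none of the other subunits closely. As *Exosc8* was at or near the floor in WT cells and above it in KO cells, r with it largely repeats the difference between genotypes. It is not separate evidence on the complex, and r within a genotype was not computed. Pearson's r with *Exosc8* was 0.31 for *Exosc7*, 0.20 for *Exosc1* and 0.07 for *Exosc4*, and lay between -0.04 and -0.38 for the 6 others, with -0.08 for *Exosc6*. Among all 45 pairs of subunits the median r was -0.10, and 16 pairs were positive. The highest were *Exosc6* with *Exosc10* (0.79), both highest in KO cell 3, and *Exosc4* with *Exosc7* (0.78), both highest in KO cell 4. For *Exosc10* this is the brighter probe, and the dimmer was at the floor in KO cell 3. The lowest was *Exosc5* with *Exosc9* (-0.89). These values describe 8 cells, each with its own array and amplification, with many readings at the floor, and carry no test.

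The genes most like *Exosc8* were sought among the 10000 other genes detected in 4 cells or more. *Dab2ip*, which encodes a Ras GTPase-activating protein, had the highest r (0.98) at 5.64, 8.89, 5.64 and 5.64 in WT cells and 14.58, 14.08, 9.82 and 12.70 in KO cells, by a probe that the files place on chromosome 10 although its other probe lies on chromosome 2. The next were an unnamed transcript region on chromosome 6 (0.97), *Gm5901* (0.97), the G protein-coupled receptor gene *Gpr157* (0.96) and *Strada* (0.95), a pseudokinase gene. The differences of the 5 were unequal, at 6.34 for *Dab2ip* and 6.32 for *Strada*, but 1.63 for *Gpr157*, 0.87 for *Gm5901* and 0.63 for the chromosome 6 region, the last with values near the floor (5.64 to 6.57). The 5 were picked for their likeness to *Exosc8* over these same cells, so that this list is a description only.

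*Exosc8* stands head to head with *Alg5*, a glucosyltransferase gene of N-glycan assembly, with their starts 175 bases apart. The stretch between them is printed because both genes start at its ends. It holds 174 bases in RefSeq (GRCm38.p6, chr3:54735365-54735538, minus strand) with a GC content of 79.9%. As printed, it runs from the *Alg5* start to the *Exosc8* start.
Exosc8 to Alg5: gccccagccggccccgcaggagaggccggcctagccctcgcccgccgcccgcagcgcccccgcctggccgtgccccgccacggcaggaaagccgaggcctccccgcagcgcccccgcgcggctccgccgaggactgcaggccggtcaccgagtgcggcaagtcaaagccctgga
On either strand neither this stretch nor the promoter window of *Exosc8* contains AACAAT (a SOX core, in 10.7% of 32851 promoter windows), CCGGAA (an extended ETS motif, 14.9%) or CCAAT (37.4%), which says only that these letters are not in it. The shorter GGAA, the end of CCGGAA, does occur in the printed stretch. *Alg5* was above the floor in WT cell 4 (11.04) and KO cell 3 (8.87) alone, a difference of -0.54 (SD 2.22). Those are not the cells in which *Exosc8* was highest. Of its other neighbours, *Supt20*, which overlaps *Exosc8* and encodes a subunit of the SAGA acetyltransferase complex, was at the floor in all cells though called well above background in 2 KO cells, and *Postn* was at the floor and not well above background in any.

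Another 3 subunits have a head-to-head neighbour within 1000 bases. Only the 8 subunits with a promoter window could be checked for one. *Zdhhc16*, a palmitoyltransferase gene beside *Exosc1* (starts 131 bases apart), differed by -0.67 (SD 1.25). *Bckdha*, which encodes a subunit of the branched-chain ketoacid dehydrogenase beside *Exosc5* (392 bases), differed by 1.43 (SD 2.93), on KO cell 1 alone. *Zdhhc3*, also a palmitoyltransferase gene, beside *Exosc7* (37 bases), differed by 1.34 (SD 1.89), on KO cell 3 alone. KO cell 1 was also the highest KO cell for *Exosc5*, while KO cell 3 was at the floor for *Exosc7*.

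The enzymes and cofactors that work with the exosome were taken as a list of 20 genes, of which 17 were detected. Their median difference was 0, with 7 higher, 8 lower and 5 equal. None had genotypes that did not overlap, where 1.46% of all detected genes did. For a list of 20 genes, finding none is near that share. At least 5-fold higher were 2, *Wdr61* of the SKI complex, which feeds cytoplasmic RNA to the exosome, at 3.96 (SD 3.52), and the cytoplasmic nuclease gene *Dis3l*. *Dis3l* was not well above background in any WT cell. It was at 12.25 and 11.46 in KO cells 3 and 4 only, 8.61-fold higher in the mean with the floor applied. At least 5-fold lower were 2, *Mtrex*, the helicase that feeds nuclear RNA to the exosome, at -4.34 (SD 2.19), and the cap-binding gene *Ncbp2*. *Ncbp2* was not well above background in any KO cell and was 5.85-fold lower with the floor applied. *Mtrex* was above the floor in WT cells 2 to 4 (9.92, 12.57 and 11.79) and at the floor in all KO cells and WT cell 1. These 4 were named after their values were seen, and the shares of 3.41% and 3.43% above are those of all detected genes.

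By the rule for naming, which kept cofactors well above background in all 4 cells of a genotype, *Rbm7* of the NEXT complex differed by 1.02 (SD 2.61). The nuclear cap-binding gene *Ncbp1* differed by -0.69 (SD 2.01), *Mphosph6*, whose protein binds the nuclear exosome, by -0.60 (SD 3.47), and the nuclear poly(A)-binding gene *Pabpn1* by -0.35 (SD 2.45). All 4 differences were within the SD between cells. *Dis3*, the gene of the main catalytic subunit, lies outside that rule and was named after its values were seen. It was at 5.64, 5.64, 9.93 and 9.22 in WT cells and 6.73, 5.64, 5.64 and 5.64 in KO cells, a difference of -1.69 (SD 1.66).

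Other RNA decay genes, a list of 45 of which 42 were detected, had a median difference of -0.27, with 15 higher, 27 lower and 3 equal. Again none had genotypes apart, which for a list of 45 is near the share of 1.46% over all detected genes. Of all 19142 detected genes, 8103 were higher, 6492 lower and 4547 equal, and 3.41% were at least 5-fold higher and 3.43% at least 5-fold lower. In the list 2 were at least 5-fold higher, *Lsm5* of the LSM ring (2.53, SD 2.77) and the nonsense-mediated decay gene *Upf3b*. *Upf3b* was not well above background in any WT cell and was at the floor in 2 KO cells. With the floor applied it was 11.2-fold higher. At least 5-fold lower were 5: the nonsense-mediated decay endonuclease gene *Smg6* (-4.80, SD 2.51), *Zfp36l1*, whose protein binds AU-rich elements (-3.94, SD 3.20), the deadenylase subunit gene *Pan3* (-3.50, SD 3.19), and *Cnot8* and *Dcp1a*, a deadenylase and a decapping factor gene. Neither *Cnot8* nor *Dcp1a* was well above background in any KO cell, and with the floor applied they were 5.21-fold and 5.04-fold lower. *Upf1*, the central helicase of nonsense-mediated decay, differed by -2.14 (SD 2.23), *Smg5* by 2.04 (SD 3.28) and *Cnot1*, the scaffold of the CCR4-NOT deadenylase, by 0.93 (SD 2.79).

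**Figure D4:**
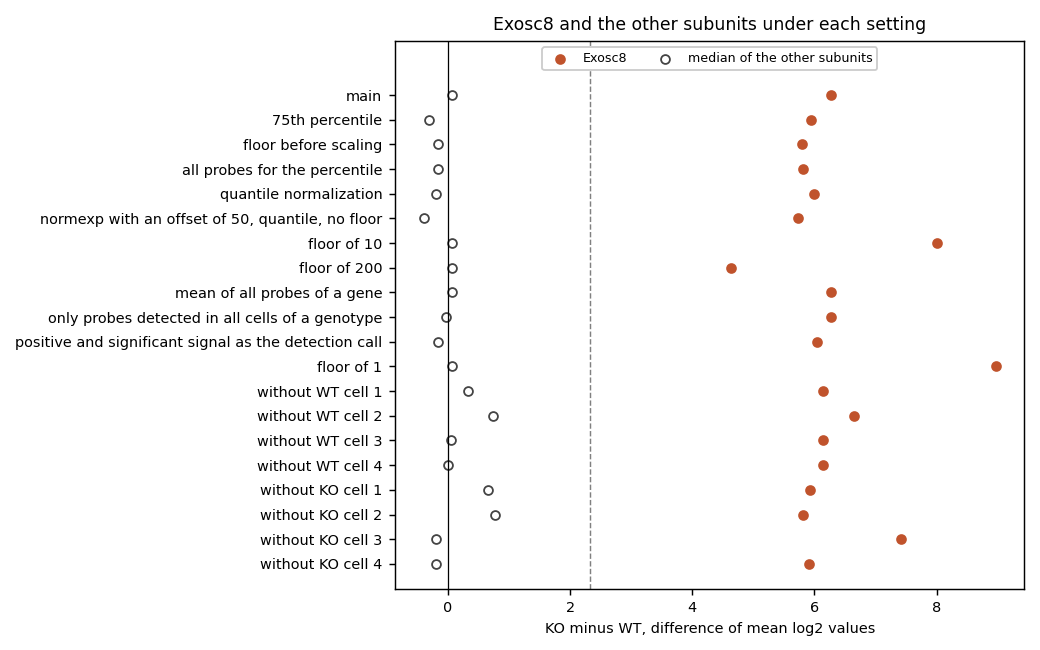
KO minus WT difference (x axis, means of log2 values) of *Exosc8* (filled) and the median of the 9 other subunits (open) under each processing setting (y axis), with 5-fold (2.32) as a dashed line. *Exosc8* stays between 4.64 and 8.97 and the median of the others between -0.40 and 0.77.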

How the data were processed

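Single-cell cDNA was amplified by PCR, transcribed from an added T3 promoter and labelled with Cy3 before hybridization. The authors deposited the Feature Extraction 12.0.2.2 output of each array (design 028005, probes annotated on mm9), in which the intensity of a spot is background-subtracted and detrended within the array but not normalized between arrays. The labels give 5 min of trypsin and the methods 3 min.

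After removal of control and outlier spots, replicate spots were averaged. This left 55295 of 55681 probes, since 386 had no usable spot on some array. No probe was saturated. The call well above background needed over 50% of a probe's usable spots. Arrays were scaled to the 50th percentile of 7570 probes with that call on all 8, a floor of 50 was applied, and values were converted to log2. The methods set the floor first. This order was changed because most probes were dim, and the methods' order is among the alternatives. A gene is given by its probe with the highest mean, and 28131 probes were named through their accession in RefSeq (GRCm38.p6, names only). Where no cell of a genotype had the call, the brighter mean was set against the floor. For each dim array the lowest signal with the call was used instead, if higher. The brighter mean can include cells set to the floor, so that such a fold depends on the floor and is not a bound.

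Probes well above background (11370 to 18175 per array) stand for depth, and the number of arrays limits the precision. No label says that cells of a genotype came from different embryos. The members and lists were chosen with earlier results of these data known. Named were all members, head-to-head neighbours, the 5 genes with the highest r with *Exosc8*, and up to 3 genes of each list in each direction among those well above background in all 4 cells of a genotype. Genes named outside this rule, the other *Exosc8* neighbours *Supt20* and *Postn* and the list genes at least 5-fold apart among them, were chosen after their values were seen.

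Alternatives changed the scaling (75th percentile, percentile over all probes, floor before scaling, quantile normalization, or normexp with an offset of 50), the floor (10 or 200), the probe choice (mean over probes, or a filter on dim probes) and the detection call, or left out each cell in turn. A floor of 1 and the omission of *Exosc2* were added after seeing the data. All arrays were on 1 slide in 1 scan, so that neither could be used as a block. The steps were tested on simulated arrays with shifts planted in bright probes only and with less spread than most subunits had. That test does not bear on probes near the floor. Python 3.11.15 with numpy 2.4.6 and pandas 2.3.3, R 4.3.3 with limma 3.58.1 and matplotlib 3.10.9 were used.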

Additional observations from a re-analysis of the deposited data

Results flagged for a closer look

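In 6 of the 20 groups of 4 cells (10 subunits in 2 genotypes) the highest or lowest cell stood apart by Dixon's ratio, the gap to the next cell over the whole range. Chance would give about 1 for normally distributed values, which values at the floor are not. *Exosc3* in KO cells, all at the floor, had no range and could not be counted. In 4 of the 6 groups the other 3 cells were at the floor, which makes the ratio 1: WT cell 3 for *Exosc3*, WT cell 1 for *Exosc7*, KO cell 4 for *Exosc7* and WT cell 2 for *Exosc8*. The other 2 concern the same cell, KO cell 3, which was above the other KO cells for *Exosc6* (ratio 0.936, at 14.22 against 7.58 to 8.0) and below them for *Exosc8* (ratio 0.925, at 8.82 against 13.29 to 13.66).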

How the results depend on the processing

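No paired analysis was possible because the results come from no test and the replicate numbers only name cells. The *Exosc8* difference was positive in all 20 settings, from 4.64 with a floor of 200 to 8.01 with a floor of 10 and 8.97 with a floor of 1, since its size depends on where the dim WT cells are placed. Leaving out 1 cell at a time gave 5.81 (without KO cell 2) to 7.42 (without KO cell 3). *Exosc8* was the only subunit with genotypes that did not overlap in all 21 settings. The median of the 9 others ran from -0.40 with normexp to 0.21 without the *Exosc2* probe, and from -0.21 to 0.77 (without KO cell 2) on leaving out a cell, so that its sign was not stable. Of the 9, none was at least 5-fold lower in any setting, and 1 was at least 5-fold higher with a floor of 1 (*Exosc7*, 2.72) and 1 without WT cell 4, a range of 0 to 1 on leaving out a cell. The median of the cofactor list was -0.35 with the filter on dim probes (5 genes left), -0.029 with normexp and 0.33 with a floor of 1, and 0 otherwise. That of the other RNA decay list ran from -0.85 to -0.046, and from -0.66 to 0 on leaving out a cell. For *Exosc2* the difference was -0.52 with quantile normalization and -0.55 with normexp. The mean of both probes gave 0.69 for *Exosc1* and -0.62 for *Exosc10*. The causes were not tested. With a filter on dim probes, 5 of the subunits gave no value. Dim probes and 1 probe for most subunits limit these results.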
